A study of Homo sapiens with 4 samples.

Results

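The ATF4 and CHOP stress response is represented here by 10 genes, taken by symbol for their known place in the pathway: ATF4, ATF3, DDIT3 (which encodes CHOP), TRIB3, ASNS, CHAC1, SESN2, DDIT4, STC2 and NUPR1. The members, and the gene lists used below, were chosen with earlier results of these data known. Directions shared within them are therefore descriptions and no independent support. All 10 members had a row among the 25411 genes of the deposited tables. All 10 passed the filter on low counts that left 13663 genes for the test. They were measured by RNA-seq in BEAS-2B cells, an established line of immortalized human bronchial epithelial cells. The tested cells were kept with 5 µM cadmium chloride for 72 h (2 libraries), and the control cells were grown for 72 h without it (2 libraries). Both groups were grown in DMEM. The question addressed is which transcripts of this response differed at the end of the exposure.

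Reads assigned to genes numbered 29937242 and 15537382 in cadmium replicates 1 and 2, and 26529403 and 8609243 in control replicates 1 and 2. Levels are given as CPM, read counts scaled to a common library size with TMM factors, unless RPKM is named. Whether replicates came from separate cultures is not labelled, and the spread behind each p-value may therefore be technical. The labels assign the controls to experiment 1 and the cadmium libraries to experiment 2. An effect of experiment cannot be told apart from that of cadmium. The simple-epithelial keratin genes KRT8 (587 and 617 CPM in cadmium, 540 and 649 CPM in control) and KRT18 (247 and 285 CPM in cadmium, 204 and 267 CPM in control) were well detected. The basal keratin genes KRT5 and KRT14 had at most 1 read in any library. Other epithelial markers were low: CDH1 had 28 and 15 reads with cadmium and 11 and 1 in control, and KRT19 had at most 7 reads. EPCAM had 5.94 and 5.06 CPM with cadmium and 2.04 and 2.38 CPM in control. KRT17 had 118 and 74.2 CPM with cadmium and 21.2 and 38.5 CPM in control, and did not pass. Of the 9 epithelial markers 6 were tested, of which EPCAM rose (log2 fold change 1.36, adjusted p = 0.0131, and 0.0955 without cadmium replicate 1) and KRT7 fell (-1.02, adjusted p = 0.00234). Of 9 markers of blood, endothelial and stromal cells, CD3E, PECAM1 and DCN had no read in any library and 2 passed the filter, CD68 and PDGFRB. All 9 together summed to 271 and 287 CPM in the cadmium libraries and 218 and 238 CPM in the controls. Of these sums PDGFRB alone had 187 and 205 CPM with cadmium and 162 and 185 CPM in control. CD68, a lysosomal membrane protein gene, rose (log2 fold change 0.59, SE 0.094, edgeR adjusted p = 0.00857). The nuclear-retained RNAs MALAT1, NEAT1 and KCNQ1OT1, read here as signs of RNA quality, summed to 1267 and 1303 CPM in the cadmium libraries and 720 and 895 CPM in the controls. MALAT1 and NEAT1 passed the test as higher with cadmium, except NEAT1 without cadmium replicate 2 (adjusted p = 0.0628). The part of these differences in the results below was not tested. In bulk RNA, fewer cells of a kind and less RNA per cell cannot be told apart.

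Cells that lack amino acids or heme, accumulate unfolded proteins in the endoplasmic reticulum or meet an oxidant phosphorylate the initiation factor eIF2 alpha. General translation then slows, while translation of ATF4, whose messenger carries upstream open reading frames, increases. ATF4 binds with C/EBP proteins to composite elements in genes of amino acid import, asparagine and serine synthesis and tRNA charging, and induces CHOP, which joins in the control of TRIB3, CHAC1 and other genes of prolonged stress. Because ATF4 and CHOP are regulated in part after transcription, messenger levels do not measure the amounts or activity of the proteins.

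Of the 9 members with a RefSeq promoter window (250 bases before to 50 bases after a gene's start, GRCh38.p14), 3 held the composite element TGATGNAA, read on either strand, where N is any base. It was present in 3.62% of all 35116 windows. That is a share per window, while 3 of 9 is a count per gene and some members have several windows. The 60 bases around each match, all upstream of the start, are shown because this is the sequence through which the pathway is known to act on such genes; capitals mark the element.
ASNS: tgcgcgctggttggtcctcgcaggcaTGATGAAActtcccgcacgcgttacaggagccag
CHAC1: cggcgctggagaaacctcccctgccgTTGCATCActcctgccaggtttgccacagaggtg
ATF3: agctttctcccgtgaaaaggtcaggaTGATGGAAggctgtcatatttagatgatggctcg
The ASNS stretch lies at chr7:97872443-97872502 on the minus strand, and its element begins 68 bases before the start. The CHAC1 stretch lies at chr15:40953236-40953295 on the plus strand, where the element begins 209 bases before the start and is read on the opposite strand, as TTGCATCA. The ATF3 stretch lies at chr1:212565190-212565249 on the plus strand. Its element begins 191 bases before the gene start on which the more upstream of the 2 ATF3 windows is set. Whether that start belongs to the ATF3 row counted here, whose position is given below in hg19, was not tested. Members with several windows were searched in all of them. No member window held the cyclic AMP response element TGACGTCA (1.85% of all windows) or the ER stress element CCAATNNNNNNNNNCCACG (0.0769% of all windows), both searched on both strands. The motifs do not overlap one another in these windows. A match is a description of the letters, and its absence says only that these letters are not in this window.

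After 72 h with cadmium, 0 of the 10 members rose, 1 fell and 9 did not pass the test. TRIB3, an inhibitor of AKT and of ATF4 itself, was the member that fell, to 81.0 ± 11.6 CPM with cadmium, against 122 ± 10.7 CPM in control (SD, n = 2 each). Among all 13663 genes tested, 8.85% were called higher and 7.66% lower (edgeR, adjusted p under 0.05), so 1 member lower of 10 is near the background. Those calls were 1209 higher and 1046 lower with TMM, and 1445 higher and 682 lower with library size alone, which left the count of members unchanged. The median log2 fold change of the members was -0.31, and 8 of 10 were negative, beside a median of 0.0019 over all genes tested. Cadmium levels lay below both controls for 5 members (TRIB3, ASNS, CHAC1, SESN2 and STC2) and above both for 0. Over all genes tested, 30.8% lay below and 31.3% above. Leaving out single libraries moved the count of lower members to 5 without cadmium replicate 1 (TRIB3, ATF4, CHAC1, SESN2 and STC2), where 1.84% of all genes tested were lower, and to 0 without cadmium replicate 2, where 1.83% were. Higher members numbered 1 without control replicate 1 (ATF3), where 7.59% of all genes tested were higher, and 1 without control replicate 2 (DDIT4), where 14.1% were. At an unadjusted p under 0.05, 3 members passed, TRIB3, SESN2 and STC2, which is near the 34.0% of all genes tested that did so. DESeq2 also called 0 members higher. Where leaving out a library left 1 in a group, that library was assumed to vary like the other group. Calls and p-values from such fits, here and below, do not measure the spread of that group.

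**Figure D1:**
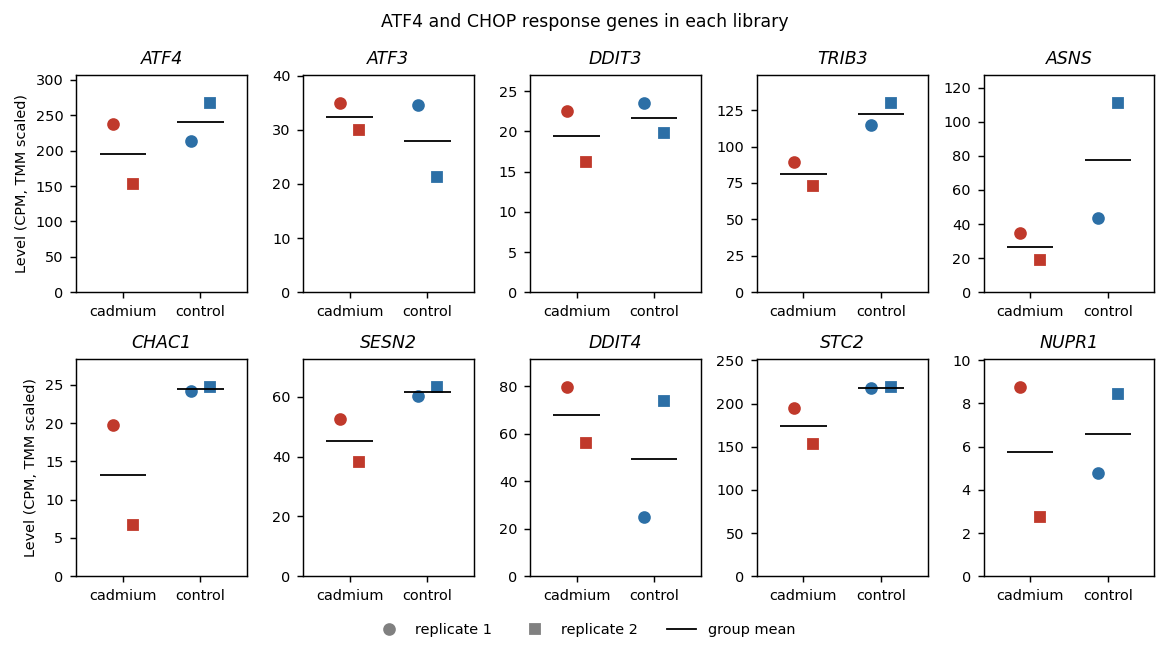
Level of each of the 10 genes in CPM (TMM scaled, linear axis from 0) in the 2 cadmium and the 2 control libraries; circles are replicate 1, squares replicate 2 and lines group means. Cadmium replicate 1 lies above cadmium replicate 2 in every panel, and both cadmium points lie below both control points for TRIB3, ASNS, CHAC1, SESN2 and STC2.

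Per length of transcript, ATF4 was the most abundant member in both groups, at a mean of 111 ± 37.7 RPKM with cadmium and 141 ± 23.4 RPKM in control (SD, n = 2 each). Its lowest library, at 84.2 RPKM, was above the highest library of any other member, 47.2 RPKM for ASNS in control replicate 2. In the cadmium libraries the order by mean RPKM was then DDIT4 (34.5), TRIB3 (29.4), STC2 (29.0), DDIT3 (17.0), ATF3 (14.0), ASNS (11.7), SESN2 (11.4), CHAC1 (7.61) and NUPR1 (5.99). Of these neighbours, STC2 and DDIT3 were separated by more than their spread, and the other pairs overlapped. In the controls the order after ATF4 was TRIB3 (43.5), STC2 (35.6), ASNS (32.9), DDIT4 (24.6), DDIT3 (19.9), SESN2 (15.3), CHAC1 (13.8), ATF3 (11.6) and NUPR1 (6.78). There the pairs TRIB3 and STC2, DDIT3 and SESN2, SESN2 and CHAC1, and ATF3 and NUPR1 did not overlap. ASNS stood in the fourth place of the controls and in the seventh of the cadmium libraries.

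ATF4, the bZIP transcription factor at the head of the response (chromosome 22, 39916569 to 39918691 in hg19, plus strand), had 237 and 153 CPM in the cadmium libraries and 213 and 267 CPM in the controls. The groups overlapped, with cadmium replicate 1 between the controls and cadmium replicate 2 below both. ATF4 thus had a log2 fold change of -0.29 (SE 0.25, 95% interval -0.97 to 0.39, edgeR adjusted p = 0.482). Without cadmium replicate 1 the value was -0.64, while without cadmium replicate 2 it was -0.0084. GENCODE lists 4 pseudogenes named after ATF4 and 4 named after ASNS, and how reads shared with such copies were counted is not given in the sources used here.

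DDIT3, which encodes the bZIP factor CHOP and lies on chromosome 12 (57910371 to 57914300 in hg19, minus strand), had 22.6 and 16.2 CPM with cadmium and 23.5 and 19.8 CPM in control. Cadmium replicate 1 lay within the range of the controls, and cadmium replicate 2 was the lowest of the 4. Its log2 fold change was -0.16 (SE 0.18, 95% interval -0.58 to 0.25, adjusted p = 0.569), and it turned to 0.057 without cadmium replicate 2. The DDIT3 row shares 68 bases with the methionyl-tRNA synthetase gene MARS on the opposite strand, and whether strand was used in counting is not given in the sources used here. On the RPKM scale MARS was more abundant, at 80.7 and 67.8 with cadmium and 92.9 and 120 in control, and no DDIT3 library exceeded 21.3 RPKM. MARS itself fell (log2 fold change -0.55, adjusted p = 0.0367).

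ATF3, a stress-induced bZIP factor that ATF4 and CHOP can activate and that in turn binds ATF sites (chromosome 1, 212788360 to 212794119 in hg19, plus strand), was measured at 35.0 and 29.9 CPM with cadmium and 34.5 and 21.3 CPM in control. Control replicate 2 was low and the other libraries lay close together. For ATF3 the log2 fold change was 0.18 (SE 0.22, 95% interval -0.33 to 0.70, adjusted p = 0.595). It became 0.62 without control replicate 1 and -0.082 without control replicate 2.

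TRIB3 lies on chromosome 20 (361308 to 378203 in hg19, plus strand) and is known as a late target of ATF4 and CHOP together. It had 89.2 and 72.8 CPM in the cadmium libraries and 115 and 130 CPM in the controls, from 2731, 1151, 2988 and 1094 reads. Both cadmium libraries were below both controls. The log2 fold change was -0.59 (SE 0.12, 95% interval -0.86 to -0.32, adjusted p = 0.0160), a fold of 0.666 (interval 0.552 to 0.803). It passed in 9 of 10 alternatives, with adjusted p from 0.000153 to 0.0815, and missed the threshold without cadmium replicate 2 (log2 fold change -0.44).

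NUPR1, a small nuclear chromatin-binding protein induced by ATF4 in stressed cells, was the least abundant member (chromosome 16, 28548662 to 28550495 in hg19, minus strand). It had 268 and 43 reads in the cadmium libraries (8.75 and 2.72 CPM) and 124 and 71 reads in the controls (4.76 and 8.43 CPM). The cadmium libraries held both the highest and the lowest level of the 4. The log2 fold change of -0.068 therefore came with a wide 95% interval, -1.78 to 1.64 (SE 0.63, adjusted p = 0.955). Its sign turned without cadmium replicate 2 (0.47) and without control replicate 2 (0.35), while the value was -1.22 without cadmium replicate 1.

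ASNS, asparagine synthetase, is the textbook transcriptional target of ATF4 under amino acid limitation, and the element printed above lies in its promoter. The gene (chromosome 7, 97481429 to 97501854 in hg19, minus strand) had 34.5 and 18.9 CPM with cadmium and 43.5 and 111 CPM in control. Both cadmium libraries were below both controls, but the controls themselves differed 2.55-fold (counting interval 2.34 to 2.79). With that spread, the log2 fold change of -1.47, the largest in size among the members, had an SE of 0.70 and did not pass (95% interval -3.84 to 0.89, adjusted p = 0.284). The value was -0.67 without control replicate 2 and -2.02 without control replicate 1. ASNS passed in none of the 10 other settings in which its value was computed.

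CHAC1 degrades glutathione through its gamma-glutamyl cyclotransferase activity and is a target of ATF4, ATF3 and CHOP (chromosome 15, 41245636 to 41248717 in hg19, plus strand). It had 605 and 105 reads with cadmium (19.8 and 6.64 CPM) and 628 and 208 reads in control (24.1 and 24.7 CPM). The controls agreed closely, cadmium replicate 1 was slightly below them and cadmium replicate 2 was far below. CHAC1 differed by -0.84 on the log2 scale (SE 0.57, 95% interval -2.52 to 0.84, adjusted p = 0.397). Without cadmium replicate 1 it was -1.87, and without cadmium replicate 2 it was -0.30. With 1 cadmium library left, the test takes its spread from the controls, while the cadmium pair differed 2.97-fold.

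SESN2 and DDIT4 restrain the growth kinase complex mTORC1, the first as a leucine sensor and the second through the TSC complex. SESN2 (chromosome 1, 28585963 to 28609002 in hg19, plus strand) had 52.5 and 38.2 CPM with cadmium and 60.3 and 63.3 CPM in control. Both cadmium libraries were below both controls. SESN2 differed by -0.44 on the log2 scale (SE 0.15, 95% interval -0.78 to -0.094), with an adjusted p of 0.0803 above the threshold. The interval is for this gene alone and is not adjusted over genes. SESN2 passed with no filter on low counts (edgeR adjusted p = 0.0259). Its log2 fold change was -0.69 without cadmium replicate 1 and -0.22 without cadmium replicate 2.

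DDIT4, also called REDD1 and responsive to hypoxia and glucocorticoids as well as to ATF4, lies on chromosome 10 (74033677 to 74035797 in hg19, plus strand). It had 79.7 and 56.3 CPM with cadmium and 25.1 and 73.6 CPM in control. Control replicate 1 was low, while control replicate 2 lay between the cadmium libraries. The log2 fold change was 0.53 (SE 0.69, 95% interval -1.79 to 2.86, adjusted p = 0.663). It was 1.45 without control replicate 2 and turned to -0.11 without control replicate 1. The sign for DDIT4 thus rested on which control library was kept. With 1 control left, the test takes its spread from the cadmium pair, while the controls differed 2.93-fold.

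STC2, a secreted glycoprotein induced by endoplasmic reticulum stress and hypoxia (chromosome 5, 172741726 to 172756506 in hg19, minus strand), had 195 and 153 CPM with cadmium and 217 and 219 CPM in control. The controls were nearly level, with a ratio of replicate 2 over 1 of 1.01 (counting interval 0.956 to 1.06), and both cadmium libraries were below them. The log2 fold change was -0.32 (SE 0.11, 95% interval -0.59 to -0.062, adjusted p = 0.0874). STC2 passed with no filter (edgeR adjusted p = 0.0286). Its log2 fold change was -0.50 without cadmium replicate 1 and -0.16 without cadmium replicate 2.

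The members varied together between the cadmium libraries. All 10 were higher in cadmium replicate 1 than in cadmium replicate 2, by 1.17-fold for ATF3 to 3.22-fold for NUPR1 (median 1.41-fold), where 49.6% of all genes tested were higher in replicate 1. For all 10 the 95% counting interval of the ratio, which covers counting error only, lay above 1. The share of all genes tested with such an interval is not given here, so the intervals alone do not set the members apart. ATF4 itself was 1.55-fold higher in cadmium replicate 1 (interval 1.48 to 1.62), ASNS 1.83-fold (1.61 to 2.09) and CHAC1 2.97-fold (2.41 to 3.69). Cadmium replicate 2 was the lowest of the 4 libraries for 8 members, the exceptions being ATF3 and DDIT4. This count, too, has no share over all genes tested beside it. Cadmium replicate 1 was the deeper of the pair, and the part of depth in this difference was not tested.

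Between the controls the members did not move as one. Control replicate 2 was higher for 8 of 10, against 50.7% of all genes tested. The counting interval of replicate 2 over 1 lay above 1 for 5 (ATF4, TRIB3, ASNS, DDIT4 and NUPR1) and below 1 for 1 (ATF3). For these intervals no share over all genes tested is given. DDIT4 had the widest gap, 2.93-fold (interval 2.62 to 3.28). CHAC1, SESN2 and STC2 differed between controls by at most 1.05-fold. The median absolute log2 gap between libraries of a group was 0.49 for the members against 0.12 for all genes tested in the cadmium pair, and 0.29 against 0.17 in the control pair. For 8 of 10 members the larger of these gaps exceeded the size of the fold change between groups, which was so for 49.5% of all genes tested.

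**Figure D2:**
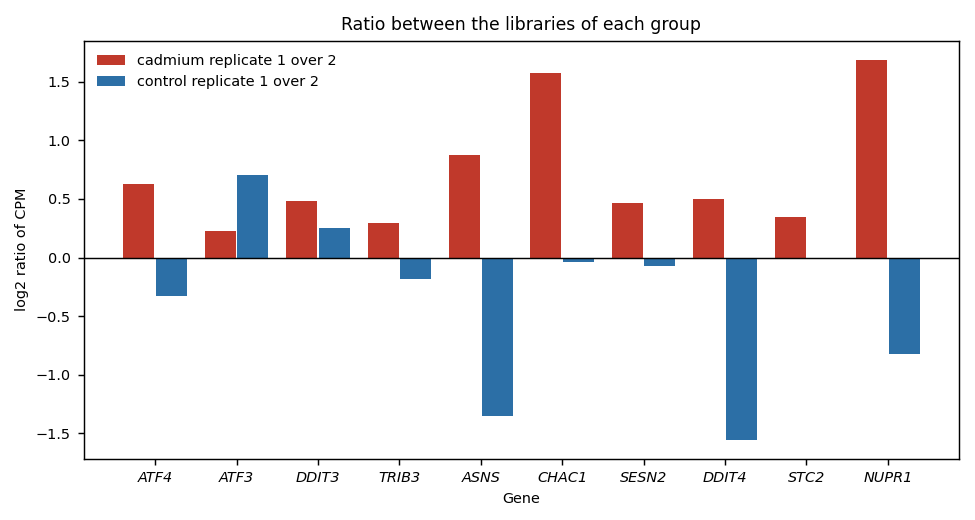
Log2 ratio of replicate 1 over replicate 2 in CPM for each gene, with cadmium bars left of control bars. All 10 cadmium bars are above 0, with NUPR1 and CHAC1 tallest, while 8 of 10 control bars are below 0 and those of ASNS and DDIT4 are the longest.

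**Figure D3:**
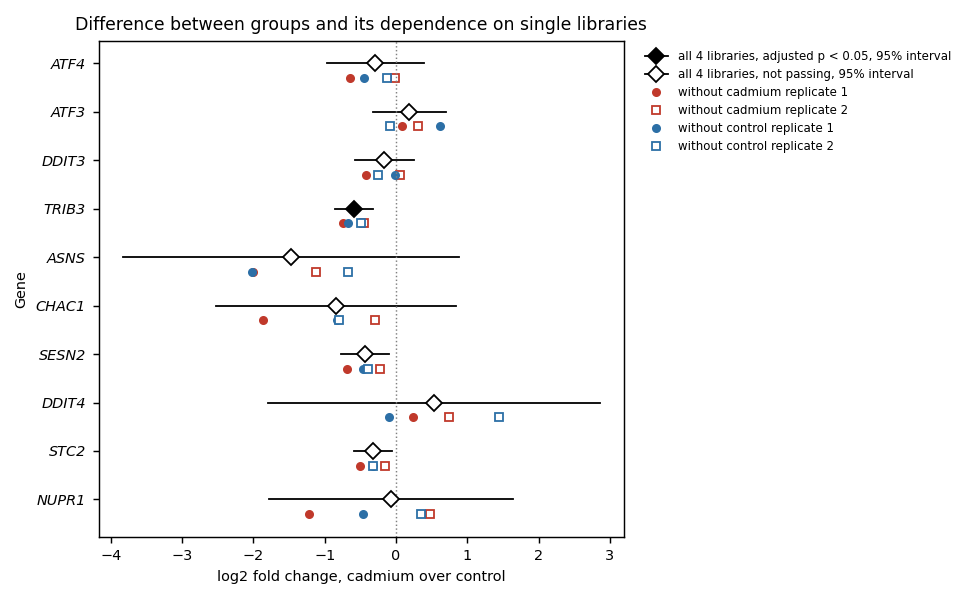
Log2 fold change of cadmium over control for each gene (diamonds, filled where the edgeR adjusted p is under 0.05) with its 95% interval as a line, and just below it the value with each library left out in turn (circles for a left-out replicate 1, squares for a left-out replicate 2). TRIB3 is the filled diamond; leaving out cadmium replicate 1 moves all 10 genes toward lower values, and leaves ATF3 and DDIT4 above 0.

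The authors' deposited table gives TRIB3 a log2 ratio of -0.54 (adjusted p = 0.000654), and TRIB3 is the 1 member of 10 under 0.05 there. SESN2 (log2 ratio -0.39, adjusted p = 0.0612) and STC2 (log2 ratio -0.30, adjusted p = 0.0742) follow in the authors' deposited table. All 10 members have the same sign in the authors' deposited table as in the edgeR fit, from the same 4 libraries. The sizes differ. The deposited log2 ratio was -0.42 for ASNS (-1.47 in the edgeR fit), -0.26 for CHAC1 (-0.84) and 0.13 for DDIT4 (0.53). For NUPR1 it was slightly larger in size (-0.079, against -0.068). The cause was not tested. For NDRG1 and TXNIP the authors' values are given with their list below. Of the other lists below, CEBPB (adjusted p = 0.0249) and JUNB (0.00811) also passed as higher in the authors' deposited table. PSAT1 (0.0317), MTHFD2 (0.0154), MTHFD1L (0.0135), PYCR1 (0.0460), SARS (0.00383) and YARS (0.00253) passed there as lower. None of these passed the edgeR test. SLC43A1, higher in the edgeR test, missed the threshold there (0.0520).

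Upstream of ATF4, none of the 14 genes of eIF2 kinases, eIF2 and eIF2B subunits and eIF2 phosphatase subunits passed the test, and their median log2 fold change was 6.1e-05. The heme-regulated kinase gene EIF2AK1, for example, had 137 and 137 CPM with cadmium and 124 and 129 CPM in control, and the ER stress kinase gene EIF2AK3 (PERK) had 28.6 and 33.0 CPM with cadmium and 28.3 and 27.6 CPM in control. PPP1R15A, the CHOP-induced phosphatase subunit GADD34, had 175 and 148 CPM with cadmium and 182 and 123 CPM in control. The smallest p-values belonged to EIF2S2 (log2 fold change -0.32, adjusted p = 0.0550) and EIF2B1 (-0.24, adjusted p = 0.107). EIF2S2 passed without control replicate 1 (adjusted p = 0.0333) and with no filter (adjusted p = 0.0227), and 1 other gene of the list passed as higher without control replicate 1.

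Among 16 bZIP partners and relatives, ATF5 and CEBPG fell and 14 did not pass. ATF5, an ATF4 relative that is translated under the same control, had 19.4 and 26.5 CPM with cadmium and 39.2 and 33.0 CPM in control (log2 fold change -0.68, SE 0.17, adjusted p = 0.0313). CEBPG, a C/EBP partner of ATF4, had 42.7 and 38.3 CPM with cadmium and 53.6 and 60.1 CPM in control (-0.48, SE 0.11, adjusted p = 0.0244). For each of them both cadmium libraries were below both controls. ATF5 missed the threshold without cadmium replicate 1 (adjusted p = 0.205) or control replicate 1 (0.0844), and CEBPG without cadmium replicate 1 (0.0626) or cadmium replicate 2 (0.172). Higher genes in this list numbered 1 without cadmium replicate 2, 3 without either control, and 2 with DESeq2 and with the replicate block. Of the 7 paralogs of the members, 5 were tested and 0 passed. STC1 had 17.5 and 11.2 CPM with cadmium and 1.04 and 4.16 CPM in control (log2 fold change 2.80, SE 0.66, adjusted p = 0.0598), and TRIB1 had 11.3 and 10.8 CPM with cadmium and 7.64 and 4.39 CPM in control (0.80, SE 0.24, adjusted p = 0.0557). STC1 and TRIB1 each passed as higher with either control left out (adjusted p from 0.00629 to 0.0486 for TRIB1, and 0.000175 and 0.0151 for STC1). TRIB1 also passed with the replicate block (adjusted p = 0.0252), with no filter (0.0104) and with library size alone (0.0489), and STC1 in none of these.

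ATF4 is known to activate genes of amino acid import. Among 10 amino acid transporter genes, 1 was higher and 4 were lower past the threshold, 5 did not pass, and the median log2 fold change was -0.44. SLC7A5 and SLC3A2 encode the light and heavy chains of the leucine transporter LAT1. SLC7A5 had 349 and 326 CPM with cadmium and 687 and 880 CPM in control (log2 fold change -1.21, SE 0.12, adjusted p = 0.00263), and SLC3A2 had 196 and 159 CPM with cadmium and 276 and 352 CPM in control (-0.82, SE 0.14, adjusted p = 0.0135). For both genes the groups were apart by more than the gap within either, and both passed in all 10 alternatives. SLC1A4, a neutral amino acid carrier, fell by 0.62 on the log2 scale and missed the threshold without cadmium replicate 2 (adjusted p = 0.0661). SLC43A1, another leucine carrier, rose by 0.49 (adjusted p = 0.0355), and missed it in 5 of 10 alternatives, among them the replicate block (adjusted p = 0.0563). The cystine importer gene SLC7A11 had 21.9 and 14.0 CPM with cadmium and 32.2 and 61.9 CPM in control, and its difference of -1.33 on the log2 scale missed the threshold (adjusted p = 0.135). Lower transporter genes numbered 2 without cadmium replicate 2 and 7 without control replicate 1.

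All 9 listed enzymes of serine, proline and one-carbon synthesis had negative log2 fold changes, and 2 passed as lower. Their median was -0.57, beside 0.0019 over all genes tested. PSPH, the last enzyme of serine synthesis, fell by 0.57 (SE 0.14, adjusted p = 0.0289) and SHMT2, the mitochondrial serine hydroxymethyltransferase, fell by 0.53 (SE 0.13, adjusted p = 0.0304). Lower genes here numbered 0 without cadmium replicate 2, 6 without control replicate 1 and 5 with DESeq2. All 12 listed cytosolic aminoacyl-tRNA synthetase genes, which are not the whole family, were likewise negative (median -0.45). Their log2 fold changes ran from -0.91 for WARS to -0.068 for AARS, 4 genes fell and 8 did not pass. The share of negative genes over all genes tested is not given here. WARS had 79.5 and 72.0 CPM with cadmium and 120 and 166 CPM in control (log2 fold change -0.91, SE 0.15, adjusted p = 0.0123), and TARS had 165 and 151 CPM with cadmium and 222 and 219 CPM in control (-0.48, SE 0.083, adjusted p = 0.0106). MARS and IARS fell by 0.55 and 0.35 on the log2 scale. Lower synthetase genes numbered 1 without cadmium replicate 2 (WARS), 8 without control replicate 1 and 2 with library size alone. Without cadmium replicate 2 the adjusted p was 0.121 for PSPH, 0.118 for SHMT2, 0.0737 for TARS, 0.134 for MARS and 0.172 for IARS, and without cadmium replicate 1 it was 0.133 for PSPH and for IARS. All 12 listed synthetase genes were higher in cadmium replicate 1 than in replicate 2 (median 1.14-fold), beside 49.6% of all genes tested. In control replicate 2, 11 were higher than in replicate 1 (median 1.32-fold), beside 50.7% of all genes tested.

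Of 18 tested genes among 19 other reported ATF4 or CHOP targets, 2 rose, 1 fell and 15 did not pass (median log2 fold change 0.091). Log2 fold changes were positive for 9 and negative for 9. The largest were among the 15. NDRG1 had 590 and 406 CPM with cadmium and 60.8 and 127 CPM in control (log2 fold change 2.44, edgeR adjusted p = 0.0885). TXNIP had 522 and 184 CPM with cadmium and 60.7 and 94.9 CPM in control (2.21, edgeR adjusted p = 0.202). In the authors' deposited table both passed as higher (adjusted p = 0.00123 and 0.0481). KLHL24, an adaptor of a ubiquitin ligase, had 70.3 and 67.4 CPM with cadmium and 24.1 and 27.9 CPM in control (log2 fold change 1.42, SE 0.11, adjusted p = 0.00164). BCL2L11, which encodes the proapoptotic protein BIM, had 25.3 and 26.6 CPM with cadmium and 10.6 and 14.6 CPM in control (1.08, SE 0.17, adjusted p = 0.00853). KLHL24 and BCL2L11 passed in all 10 alternatives. EIF4EBP1, an inhibitor of cap-dependent translation, fell by 0.63 (SE 0.13, adjusted p = 0.0156), and missed the threshold without cadmium replicate 2 (adjusted p = 0.0548). Higher genes of this list numbered 5 without either control and 4 with DESeq2 or library size alone. Lower genes numbered 0 without cadmium replicate 2, 2 without control replicate 1 and 4 without control replicate 2. The 12 endoplasmic reticulum folding genes, so named here, include the transcription factor gene XBP1 and the degradation genes EDEM1 and SEL1L. Other branches of the unfolded protein response mainly control the 12. HSP90B1 (925 and 940 CPM with cadmium, 697 and 593 CPM in control) rose 1.45-fold (log2 SE 0.091, edgeR adjusted p = 0.0104), and 11 did not pass. HSPA5, the sensor chaperone BiP, had 720 and 939 CPM with cadmium and 660 and 653 CPM in control (log2 fold change 0.34, adjusted p = 0.0939). Higher folding genes numbered 2 without cadmium replicate 1 and lower ones 2 without control replicate 2. Over all 8 lists together, 4 of 96 tested pathway genes rose and 13 fell, beside 8.85% and 7.66% of all genes tested. With single libraries left out these counts moved, and so did the counts over all genes tested. The changes of count given above for each list are therefore not read as results about the lists.

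**Figure D4:**
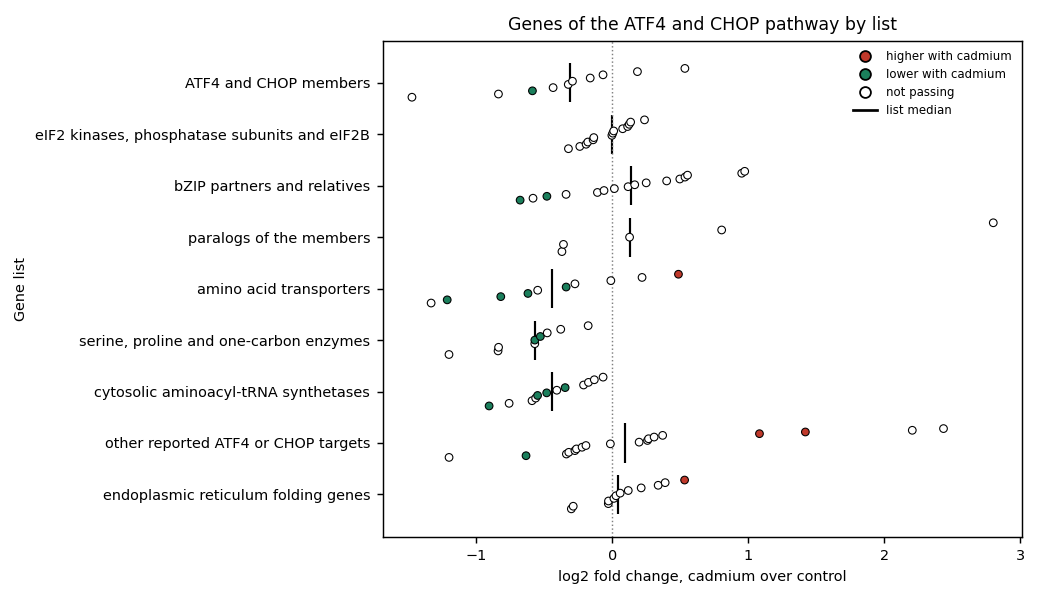
Log2 fold change of cadmium over control for every tested gene, by list, with filled points for genes that passed as higher (red) or lower (green) and a line at each list's median. The medians lie at -0.44 for amino acid transporters, -0.57 for serine, proline and one-carbon enzymes and -0.45 for aminoacyl-tRNA synthetases, and near 0 for eIF2 regulators and endoplasmic reticulum folding genes.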

How the data were processed

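RNA-seq was measured in 4 BEAS-2B libraries, 2 with cadmium and 2 controls. Per the file headers, the authors deposited for every RefSeq gene and library a whole-number read count and an RPKM value. Their comparison table, also deposited, holds group mean RPKM, a log2 ratio, a p-value and its adjusted form. The log ratio in the authors' deposited table is read as log2, since the slope of log2 RPKM ratios on it was 1.11 for the 1781 genes whose control level passed 50 RPKM. The submitters' processing notes name STAR 2.4, DESeq2, DESeq and hg19 without their roles, while the sources used here name no counter and no strand setting. Per the labels' protocols, libraries were made from total RNA with a TruSeq RNA kit.

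The counts as deposited were analysed with R 4.3.3 and edgeR 4.0.16: filterByExpr, TMM, a model with the group alone and the robust quasi-likelihood test. P-values were Benjamini-Hochberg adjusted over 13663 genes, with a threshold of 0.05. SE and 95% intervals came from the F statistic. The procedure was tested on simulated data, with a spread set by expression level alone. That setting lacks the wider gaps between libraries seen for the members, so it cannot show how the test behaves for them. Counting intervals are exact binomial. Ranges of total counts, 8609243 to 29937242 per library, set the precision, and with 2 libraries per group a gene's spread is poorly known. Gaps between libraries used CPM plus 0.1. Other settings tried were DESeq2 size factors, a replicate block, library size alone, no filter (at least 1 read), 5 CPM in 2 libraries, DESeq2 1.42.0 and leaving out each library, where a lone library is assumed to vary like the other group. Promoters came from RefSeq (GRCh38.p14), used for sequence only, and pseudogene names from GENCODE.

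The members and lists were chosen with earlier results of these data known. All members are named. From each other list, the passing genes with the largest change (up to 4), the largest passing change against the majority, or, where none passed, the 2 with the smallest p were taken. Not every such gene is printed. Given for their role, and chosen after their values were seen, were EIF2AK1, EIF2AK3, PPP1R15A, SLC7A11, HSPA5, KRT8 and KRT18. The markers CDH1, KRT17, KRT19 and PDGFRB were likewise added for their levels, and NDRG1 and TXNIP for the size of their change. AARS was added as the end of the range of its list. CEBPB, JUNB, PSAT1, MTHFD2, MTHFD1L, PYCR1, SARS and YARS were added because their calls differ in the authors' deposited table.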

Additional observations from a re-analysis of the deposited data

How the results depend on the processing

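Of 100 member values under 10 other settings, 86 kept their direction and their side of the threshold, 8 passed newly, 1 missed newly and 5 changed sign. The 5 were ATF3 without control replicate 2 (-0.082), DDIT3 without cadmium replicate 2 (0.057), DDIT4 without control replicate 1 (-0.11), and NUPR1 without cadmium replicate 2 (0.47) and without control replicate 2 (0.35). Of 250 values for 25 other named genes, 217 kept both, 9 passed newly, 24 missed newly and 0 changed sign. Lower members numbered 3 with no filter, where 1467 of 18131 genes were lower, and the cause was not tested. With 1 library left out, log2 fold changes ran from -0.082 to 0.62 for ATF3, -0.43 to 0.057 for DDIT3, -0.11 to 1.45 for DDIT4 and -1.22 to 0.47 for NUPR1. Leaving out 1 library gave 0 to 1 higher and 0 to 5 lower members, 4 to 13 higher and 4 to 26 lower pathway genes, and 395 to 1933 higher and 250 to 1597 lower genes in all. Higher pathway genes numbered 8 with library size alone, 8 with no filter and 7 with DESeq2, the causes of which were not tested. With library size alone 1445 genes were higher and 682 lower, against 1209 and 1046 with TMM, and the median over all genes was 0.060. The replicate numbers are not stated to pair the libraries, and the replicate 1 minus 2 differences of the groups had a correlation of -0.14 over 13663 genes. With the replicate block 1073 genes were higher and 811 lower, with 1 member lower and 0 higher. It changed no member call. With the numbers crossed, a replicate block chosen after seeing the data, 1551 genes were higher and 1471 lower, with 0 members higher and 5 lower, and 14 pathway genes higher and 28 lower. With 2 libraries per group, differences as wide as the gaps between libraries of a group were not detectable for ASNS, CHAC1, DDIT4 and NUPR1, which had 95% intervals spanning over 3 on the log2 scale.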
